A study of Mus musculus with 48 samples.

Results

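The genes described here are 9 amino acid transporters of the liver, namely Slc7a2, Slc38a2, Slc38a3, Slc38a4, Slc3a2, Slc43a1, Slc16a10, Slc1a2 and Slc6a12. They were taken by gene symbol through every probe set that carries 1 symbol, which gave 23 of 45037 probe sets and 9 of 18193 genes. A further probe set, 1433095_at, carries the symbols of Slc1a2 and Gm13872 and was left out of the counts. The genes were picked with the diet differences of these arrays in view, among them that of Slc7a2. The diet differences are therefore given as a description with no p-value. How many of them passed the adjusted threshold is printed beside the share of all probe sets that did, also for other processing settings. Nothing is read from these counts. The change with duration, 4-wk minus 2-d, was tested. Within 1 diet it uses the same mice as the diet differences, so its p-values there are not independent of the choice of genes.

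Livers came from male C57BL/6J mice that were obtained at 6 to 7 wk of age, made obese by 10 wk of the L-P/C-HF diet, housed individually and selected for high glucose responses, and all groups share this history. Mice were then switched to H-P/C-HF (30% of energy as protein, 15% as carbohydrate, 55% as fat) for 4-wk or 2-d, or kept on L-P/C-HF (15% as protein, 30% as carbohydrate, 55% as fat) for 4-wk or 2-d, with 12 mice in each of the 4 groups. Mice of the 4-wk groups were also older and were killed on other days than those of the 2-d groups. They had also gone through a second glucose tolerance test after an overnight fast, which took place after the 2-d mice were killed. Duration, age, day and this test cannot be told apart. Array B25 was left out, following the methods of the study. With 47 mice used, the H-P/C-HF 2-d group has 11.

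Amino acids absorbed from a meal reach the liver through the portal vein, and hepatocytes take them up through carriers of several families for protein synthesis, gluconeogenesis and urea synthesis. Slc7a2 encodes a carrier of the cationic amino acids arginine, lysine and ornithine. Slc38a2 and Slc38a4 encode sodium-coupled system A carriers of small neutral amino acids, and Slc38a3 encodes the system N carrier of glutamine, asparagine and histidine. Slc3a2 is the heavy chain that brings several light-chain exchangers to the cell surface, Slc43a1 carries branched-chain and other large neutral amino acids down their gradient, and Slc16a10 does so for aromatic amino acids. Slc1a2 is a glutamate carrier that in liver belongs to the hepatocytes around the central vein, and Slc6a12 carries betaine, an osmolyte and methyl donor, and GABA.

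The values are RMA levels on the log2 scale, from 3.16 to 14.81, with array medians between 6.73 and 6.91. Levels of different probe sets are not compared, since each has its own brightness. Precision is limited by how many arrays there are. The mean over 9 hepatocyte markers lay between 13.65 and 13.99 in every mouse. Besides B25, the arrays A01 and A09 of L-P/C-HF 2-d mice and A24 of an L-P/C-HF 4-wk mouse correlated least with the others (median r of 0.979, 0.978 and 0.980, against 0.983 to 0.991 for the other 44 arrays).

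RNA quality differed with duration. It was read from the Gapdh and β-actin controls on the array, as the level of their 3′ probe sets minus that of their 5′ probe sets, which is larger where RNA is shorter. It averaged 0.27 ± 0.11 in H-P/C-HF 4-wk mice and 0.24 ± 0.07 in L-P/C-HF 4-wk mice, against 0.48 ± 0.13 in H-P/C-HF 2-d mice and 0.48 ± 0.19 in L-P/C-HF 2-d mice (log2, SD, n = 12, 12, 11 and 12). The 4-wk mice covered 0.14 to 0.51 and the 2-d mice 0.29 to 0.90, so the durations overlapped in part. Markers of non-parenchymal cells also differed with duration. Of 12 Kupffer cell markers 11 rose at 4-wk, with a median log2 change of 0.92, and of 8 markers of sinusoidal endothelium 8 rose, with a median of 0.50. Of 8 stellate cell markers 5 rose, with a median of 0.38. Each gene is represented here by its brightest probe set, and 9.68% of all genes rose and 5.34% fell in the same comparison. In these bulk samples, more cells of a type and more RNA per cell cannot be told apart.

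On each of its 4 probe sets Slc7a2 averaged higher with the H-P/C-HF diet at 2-d, and by less at 4-wk. On the brightest, 1436555_at, the lowest, median and highest levels at 2-d were 12.45, 12.77 and 13.07 in H-P/C-HF mice, against 10.96, 12.285 and 12.59 in L-P/C-HF mice. The diet difference was 0.58 ± 0.11 (log2, SE). Each of the 11 mice on H-P/C-HF exceeded the median of the L-P/C-HF group, but the groups overlapped between 12.45 and 12.59.

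On 1422648_at the H-P/C-HF 2-d mice had 10.26, 10.62 and 10.99, against 9.45, 10.00 and 10.45 in L-P/C-HF 2-d mice, a difference of 0.58 ± 0.09. On 1426008_a_at, whose suffix marks probes shared by several transcripts of a gene, they had 9.49, 10.30 and 10.95, against 8.81, 9.775 and 10.33, a difference of 0.65 ± 0.14. On the dimmest, 1450703_at, they had 7.29, 8.78 and 9.27, against 6.86, 8.185 and 8.81, a difference of 0.46 ± 0.21. Thus the 4 probe sets gave similar diet differences at 2-d (1.37- to 1.57-fold), and 1450703_at had the widest spread, with an SD of 0.71 on H-P/C-HF and 0.67 on L-P/C-HF.

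At 4-wk the diet differences were 0.19 ± 0.11 on 1436555_at, 0.32 ± 0.09 on 1422648_at, 0.29 ± 0.14 on 1426008_a_at and 0.09 ± 0.21 on 1450703_at. The levels on 1436555_at were then 12.06, 12.43 and 12.60 on H-P/C-HF and 11.79, 12.20 and 12.52 on L-P/C-HF, which overlapped over most of their range. The diet difference on 1436555_at at 4-wk minus that at 2-d was -0.39 ± 0.15, which is given with no test because it contains the 2-d differences with which the genes were chosen. With A01, A09 and A24 left out, the difference on 1450703_at at 2-d was 0.28, and array B25 stood at 11.79 on 1436555_at, below every other H-P/C-HF 2-d mouse.

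**Figure D1:**
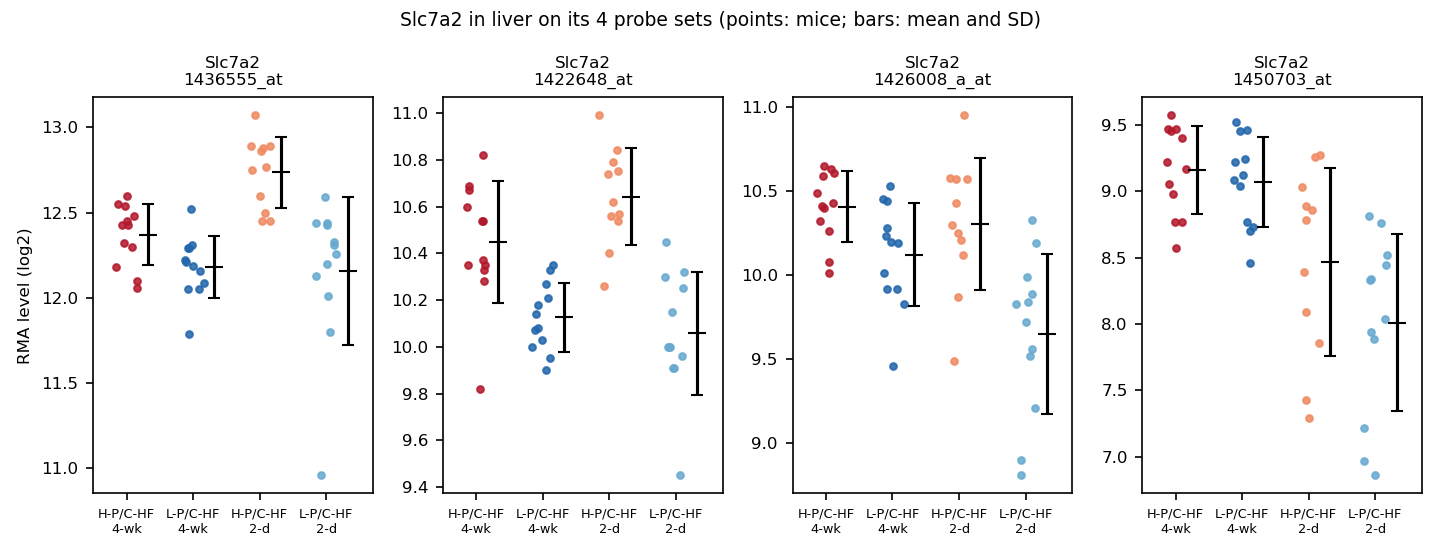
Levels of Slc7a2 (RMA, log2) on its 4 probe sets in each mouse, with the mean and SD of each group beside the points (n = 12, and 11 for H-P/C-HF 2-d). At 2-d the H-P/C-HF mice lie higher on all 4 probe sets, and the 4-wk mice are higher than the 2-d mice on 1450703_at but not on 1436555_at.

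Between 2-d and 4-wk the Slc7a2 probe sets gave different changes. On 1450703_at the lowest, median and highest levels at 4-wk were 8.57, 9.195 and 9.57 in H-P/C-HF mice, against 7.29, 8.78 and 9.27 at 2-d. In L-P/C-HF mice they were 8.46, 9.10 and 9.52 at 4-wk, against 6.86, 8.185 and 8.81 at 2-d. The level rose in both diets, by 0.69 in H-P/C-HF mice (adjusted p = 0.0338) and by 1.06 in L-P/C-HF mice (adjusted p = 4.17e-04), and all 12 of the L-P/C-HF 4-wk mice exceeded the 2-d median.

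On 1426008_a_at the level rose over both diets by 0.29 (adjusted p = 0.0389, and 0.110 without A01, A09 and A24). It rose in L-P/C-HF mice (log2 change 0.47, adjusted p = 0.0262), which was not retained without A01, A09 and A24 (0.34, adjusted p = 0.166), and the change in H-P/C-HF mice was 0.10 (adjusted p = 0.764). On 1436555_at it fell in H-P/C-HF mice by 0.37 (adjusted p = 0.0279, 0.140 with B25 included, and 0.227 with RNA quality as a covariate, where the change was -0.35). There 12 of 12 mice at 4-wk lay below the 2-d median, and the change in L-P/C-HF mice was 0.02. On 1422648_at the changes were -0.20 and 0.07, and neither passed. These comparisons within a diet use the same mice as the diet differences.

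The disagreement between probe sets was then measured within each mouse, a comparison chosen after the values were seen and given with no test. The level on 1450703_at minus that on 1436555_at averaged -3.21 ± 0.33 in H-P/C-HF 4-wk mice, against -4.27 ± 0.60 in H-P/C-HF 2-d mice. In L-P/C-HF mice it averaged -3.12 ± 0.31 at 4-wk, against -4.15 ± 0.58 at 2-d (SD). The shift was 1.06 ± 0.20 on H-P/C-HF and 1.03 ± 0.19 on L-P/C-HF (SE), and 12 of 12 mice at 4-wk exceeded the 2-d median in each diet. The shift was smallest for 1422648_at minus 1436555_at (0.17 ± 0.08 on H-P/C-HF and 0.05 ± 0.10 on L-P/C-HF), and the other pairs shifted by 0.30 to 1.06.

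The same difference followed RNA quality among mice of 1 group. Over the deviations of 47 mice from their group means, 1450703_at minus 1436555_at had r = -0.83 with the 3′ minus 5′ level, and within the groups r was -0.73 (H-P/C-HF 4-wk), -0.80 (L-P/C-HF 4-wk), -0.84 (H-P/C-HF 2-d) and -0.90 (L-P/C-HF 2-d). For 1422648_at minus 1436555_at r was -0.26 over the deviations. Within the groups, in the same order, it was -0.50, -0.74, -0.13 and -0.12, so this pair too followed RNA quality at 4-wk. Taken singly, the level had r = -0.70 on 1450703_at and -0.69 on 1426008_a_at, against -0.19 on 1422648_at and 0.05 on 1436555_at. These are descriptions over mice that share arrays and normalization. With RNA quality as a covariate the change with duration over both diets was 0.23 on 1450703_at (adjusted p = 0.587), in place of 0.87, and -0.13 on 1426008_a_at (adjusted p = 0.703), in place of 0.29, and no Slc7a2 probe set passed in either diet. The diet differences at 2-d were 0.58, 0.58, 0.65 and 0.46 with that covariate too, in the order 1436555_at, 1422648_at, 1426008_a_at and 1450703_at. RNA quality averaged 0.48 in both diets at 2-d, so the covariate could hardly move these differences and is no check on them. Which transcripts, and which part of them, each probe set matches was not analysed here.

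**Figure D2:**
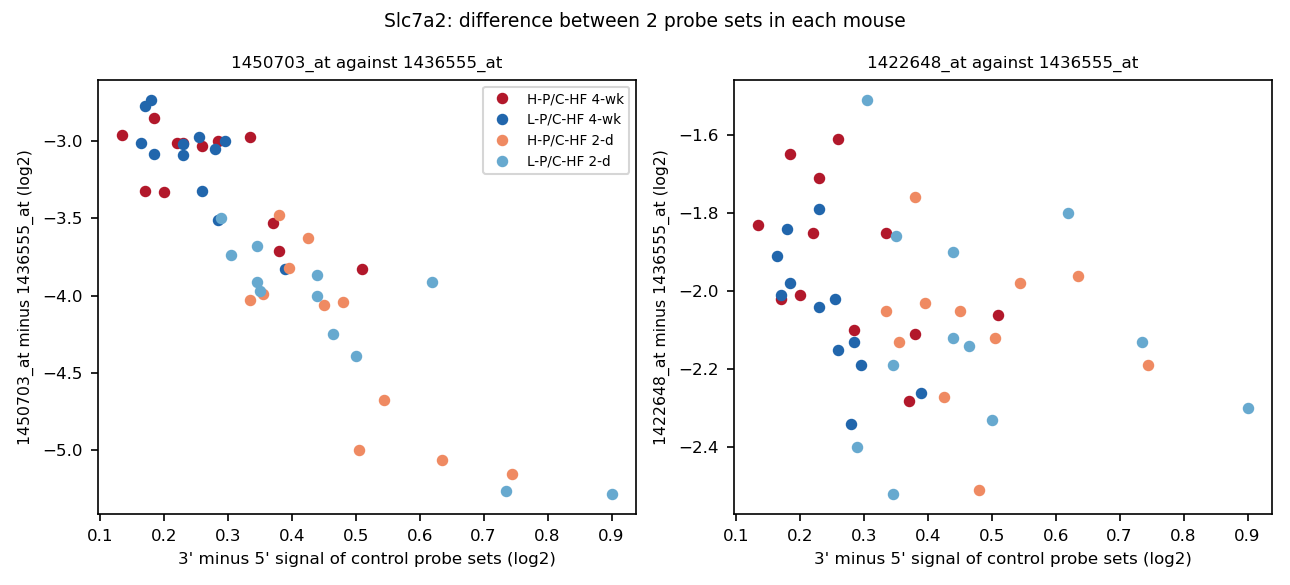
Difference between a pair of Slc7a2 probe sets (log2) in each of 47 mice against RNA quality, the 3′ minus 5′ level of the controls (log2), coloured by group. The difference 1450703_at minus 1436555_at falls along the axis in every group (r = -0.83 over deviations from the group means). That of 1422648_at minus 1436555_at shows a weaker relation over all groups (r = -0.26), but r was -0.74 within L-P/C-HF 4-wk mice and -0.50 within H-P/C-HF 4-wk mice.

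The 4 Slc7a2 probe sets had pairwise correlations of 0.46 to 0.89 over the deviations of the 47 mice from their group means, the highest between 1426008_a_at and 1450703_at. Between probe sets of different genes of the set the 226 correlations had a median of 0.14 and ran between -0.37 and 0.71. The highest was between Slc7a2 on 1426008_a_at and Slc38a4 on 1448889_at, which had r = -0.69 and -0.46 with RNA quality. The other Slc38a4 probe set, 1428111_at, had r = 0.01 with RNA quality and 0.23 with 1426008_a_at. Outside the set, the genes most like the mean of the 4 Slc7a2 probe sets, of 11169 genes with a mean level of at least 7, were Gnmt, the glycine methyltransferase of methionine metabolism (r = 0.78), Slc25a13, the mitochondrial aspartate-glutamate carrier of the urea cycle (0.74), Aldh4a1, an enzyme of proline breakdown (0.74), Fbxo3 (0.73) and Coq10b (0.73). The 1st and 99th percentiles of r over those genes were -0.37 and 0.57. The mice share arrays, and the mean of the 4 probe sets includes those that followed RNA quality.

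Over the whole set, most levels averaged slightly higher in H-P/C-HF mice. At 2-d 20 of 23 probe sets had a positive diet difference, with a median of 0.12 against 0.01 over all probe sets (16 of 23, with a median of 0.09, when B25 was included), and at 4-wk 18 of 23 did, with a median of 0.10 against -0.01. At 2-d 2 of 23 passed an adjusted p of 0.05 in limma, both of Slc7a2, where 0.0133% of all probe sets did. At 4-wk 0 of 23 passed, where 0% did. There 3 of 23 had an unadjusted p under 0.05, for which the share of all was not counted. These counts belong to the differences from which the genes were chosen and nothing is read from them. Of all genes 53.2% had a positive difference at 2-d and 40.1% at 4-wk. At 2-d 8 of 9 periportal hepatocyte markers were positive (median 0.16), as were 8 of 10 arginine and ornithine enzymes (0.11). So were 8 of 11 enzymes of glutamine, glutamate, glycine betaine and aromatic amino acids (0.16) and 8 of 9 general hepatocyte markers (0.02). Of 10 pericentral markers 5 were positive, and of 27 other plasma membrane transporters 11. Of 10 intracellular carriers 6 were positive, and of 22 targets of the transcription factor ATF4 10. Of 12 Kupffer cell markers 11 were negative at 2-d (median -0.13) and 12 at 4-wk (-0.33). At 4-wk 8 of 8 endothelial and 7 of 8 stellate cell markers were negative too (medians -0.07 and -0.10). So were 7 of 8 lymphocyte, 5 of 6 neutrophil, 6 of 6 skeletal muscle and 3 of 3 erythroid markers. The same held for 4 of 5 cholangiocyte, 4 of 5 adipocyte and 3 of 4 pancreatic acinar markers. Of general, pericentral and periportal hepatocyte markers 6 of 9, 7 of 10 and 7 of 9 were positive at 4-wk.

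After the Slc7a2 probe sets, the differences at 2-d were largest for Slc43a1, Slc38a4 and Slc16a10. Slc43a1 on 1453255_at had 7.18, 8.15 and 8.50 in H-P/C-HF 2-d mice, against 7.14, 7.605 and 8.08 in L-P/C-HF 2-d mice (difference 0.43 ± 0.14), and 0.25 ± 0.13 at 4-wk. Slc38a4 on 1448889_at had 13.16, 13.34 and 13.44, against 12.62, 13.10 and 13.36 (0.26 ± 0.05), and 0.10 ± 0.05 at 4-wk. All 11 of the H-P/C-HF mice exceeded the L-P/C-HF median for Slc38a4 at 2-d, although the ranges overlapped. Slc16a10 on 1434592_at differed by 0.25 ± 0.09 at 2-d and 0.18 ± 0.09 at 4-wk. At the other end, Slc3a2 was lower in all 11 H-P/C-HF 2-d mice than the L-P/C-HF median (9.20, 9.54 and 9.68, against 9.01, 9.685 and 10.06, difference -0.16 ± 0.08), and differed by -0.02 ± 0.08 at 4-wk.

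**Figure D3:**
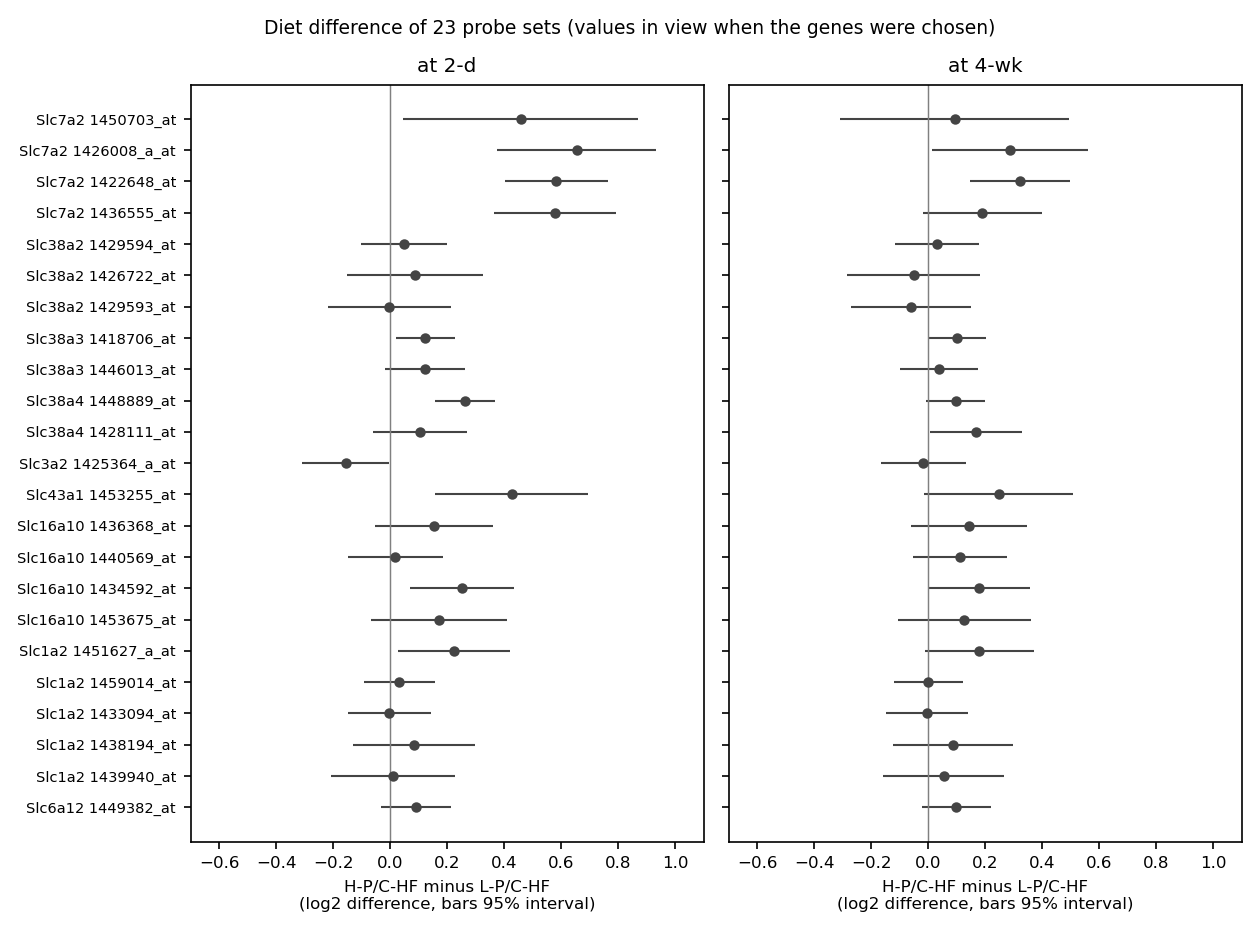
Diet difference, as H-P/C-HF less L-P/C-HF (log2, bars are 95% intervals), of the 23 probe sets at 2-d and at 4-wk. The 4 Slc7a2 probe sets lie between 0.46 and 0.65 at 2-d and between 0.09 and 0.32 at 4-wk, and no test is attached because the genes were chosen from these differences.

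With duration, more of the transporter probe sets fell than rose. Over both diets 14 of 23 passed, 4 higher and 10 lower at 4-wk, where 16.1% of all probe sets passed, 9.93% higher and 6.14% lower. After cyclic loess 2 rose and 11 fell, where 19.5% of all passed. The median log2 change of the 23 was -0.13, against -0.01 over all probe sets. With the brightest probe set of each gene 6 of 9 passed (2 higher, 4 lower), where 15% of genes did. Within H-P/C-HF mice 7 of 23 passed, 1 higher and 6 lower, where 6.69% of all did (4.71% higher and 1.98% lower). Within L-P/C-HF mice 6 of 23 passed, 3 higher and 3 lower, where 6.87% did (5.39% higher and 1.49% lower). After cyclic loess 3 were higher and 6 lower in L-P/C-HF mice, where 9.17% of all passed. The comparisons within a diet start from the 2-d levels with which the genes were chosen. A gene picked as higher on H-P/C-HF at 2-d is thereby more apt to fall on H-P/C-HF and to rise on L-P/C-HF. Nothing is read from how the directions differ between the diets. Probe sets of a gene measure the same RNA and are not independent.

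With RNA quality as a covariate 3 of 23 passed over both diets, all lower, where 2.57% of all probe sets did. Within the diets 2 of 23 passed in H-P/C-HF mice (1.38% of all), of which 1 had passed without the covariate. In L-P/C-HF mice 0 of 23 passed (1.03% of all). There 6 of 23 had an unadjusted p under 0.05, for which the share of all was not counted, so nothing is read from that count. The 3 over both diets were 1429593_at of Slc38a2, 1453255_at of Slc43a1 and 1449382_at of Slc6a12. RNA quality itself differs with duration, so this fit separates them only in part.

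**Figure D4:**
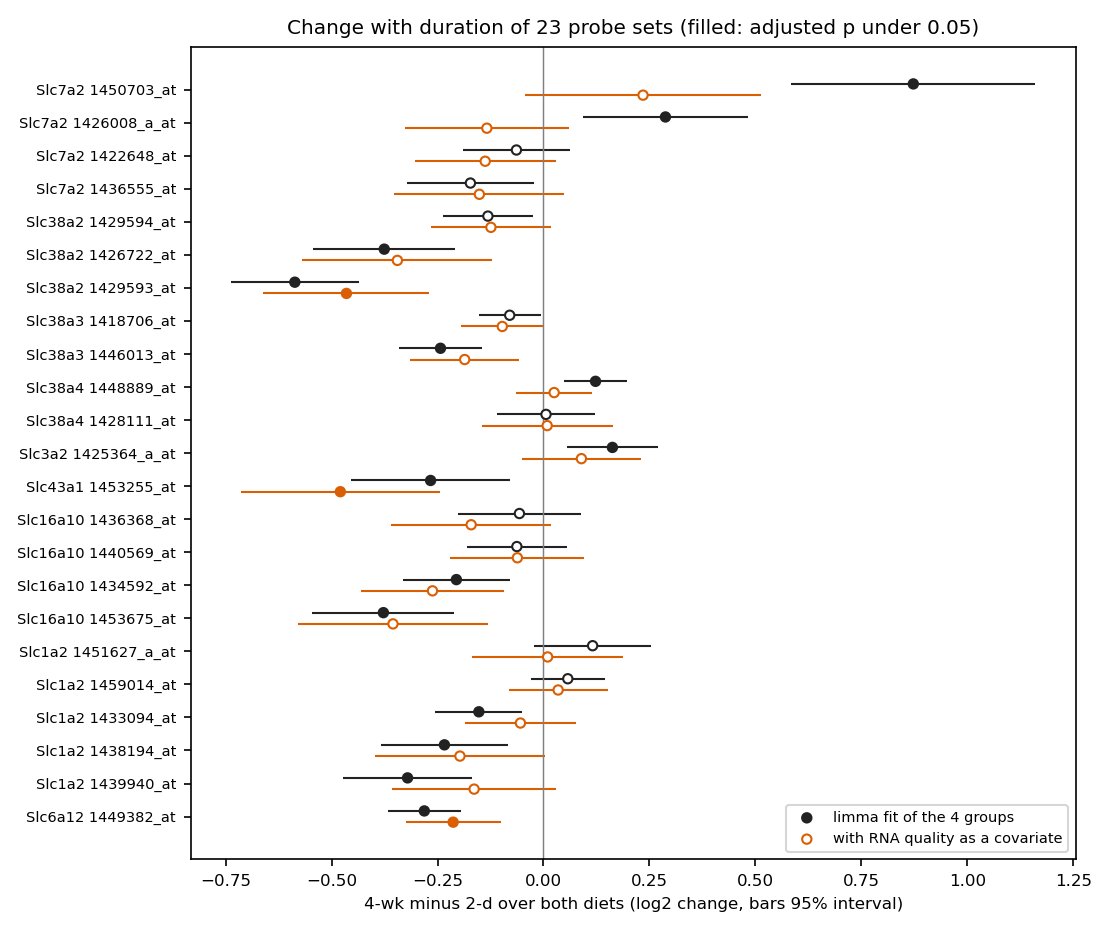
Log2 change, 4-wk minus 2-d over both diets (bars are 95% intervals), of the 23 probe sets, in the limma fit of the 4 groups and with RNA quality as a covariate. Filled points passed an adjusted p of 0.05, which 14 did in the first fit and 3 with the covariate.

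Slc38a2 showed the largest fall of the 23 probe sets, although with the RNA quality covariate Slc43a1 fell slightly more (-0.48, against -0.46 for Slc38a2 on 1429593_at). On 1429593_at the lowest, median and highest levels were 9.23, 9.525 and 9.73 in H-P/C-HF 4-wk mice, against 9.71, 10.13 and 10.57 in H-P/C-HF 2-d mice. In L-P/C-HF mice they were 9.37, 9.555 and 9.91 at 4-wk, against 9.49, 10.10 and 10.88 at 2-d. All 12 mice at 4-wk lay below the 2-d median in each diet, and in H-P/C-HF mice the ranges met only between 9.71 and 9.73. The log2 change was -0.62 ± 0.11 in H-P/C-HF mice (0.653-fold, adjusted p = 1.49e-04) and -0.56 ± 0.11 in L-P/C-HF mice (0.679-fold, adjusted p = 3.71e-04), and -0.59 over both diets (adjusted p = 8.92e-08).

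With the RNA quality covariate the change of 1429593_at over both diets was -0.46 (adjusted p = 0.00275). It passed in H-P/C-HF mice (-0.50, adjusted p = 0.0197) but not in L-P/C-HF mice (-0.43, adjusted p = 0.102). On the brighter 1426722_at it was -0.38 over both diets (adjusted p = 9.92e-04, and 0.109 with the RNA quality covariate) and -0.45 in H-P/C-HF mice (adjusted p = 0.0152, and 0.112 with B25 included), and the dim 1429594_at had -0.13 (adjusted p = 0.0916). On none of the 3 did the diets differ by more than 0.09 at either duration.

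Slc6a12, measured by a single probe set, fell to nearly the same extent in both diets. Its levels were 9.06, 9.27 and 9.47 in H-P/C-HF 4-wk mice, against 9.38, 9.55 and 9.73 in H-P/C-HF 2-d mice. In L-P/C-HF mice they were 8.95, 9.185 and 9.43 at 4-wk, against 9.24, 9.51 and 9.69 at 2-d. Again all 12 mice at 4-wk lay below the 2-d median in each diet. The changes were -0.28 ± 0.06 in H-P/C-HF mice (0.825-fold, adjusted p = 0.00286) and -0.28 ± 0.06 in L-P/C-HF mice (0.821-fold, adjusted p = 0.00152), and -0.21 over both diets with the RNA quality covariate (adjusted p = 0.0252). With that covariate the change passed in neither diet alone (-0.21 in both, adjusted p = 0.147 for H-P/C-HF and 0.222 for L-P/C-HF).

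Slc38a2 on 1429593_at and Slc6a12 were the members that fell in both diets before RNA quality was included, and both genes are known from cultured cells to be induced by hypertonic medium, so their promoters are shown. The sequences are the 250 bases before the transcription start in RefSeq on GRCm38.p6, 5′ to 3′ on the strand of the gene, in chr15:96699729-96699978 (minus strand) for Slc38a2 and chr6:121342324-121342573 (plus strand, the first of 5 annotated starts) for Slc6a12. Capitals mark TGGAAA on either strand, the core letters of the tonicity-responsive element.
Slc38a2: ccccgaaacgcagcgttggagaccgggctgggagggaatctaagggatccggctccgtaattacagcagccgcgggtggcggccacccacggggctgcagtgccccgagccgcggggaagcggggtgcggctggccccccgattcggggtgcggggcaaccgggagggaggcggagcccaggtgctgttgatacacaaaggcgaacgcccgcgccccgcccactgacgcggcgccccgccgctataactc
Slc6a12: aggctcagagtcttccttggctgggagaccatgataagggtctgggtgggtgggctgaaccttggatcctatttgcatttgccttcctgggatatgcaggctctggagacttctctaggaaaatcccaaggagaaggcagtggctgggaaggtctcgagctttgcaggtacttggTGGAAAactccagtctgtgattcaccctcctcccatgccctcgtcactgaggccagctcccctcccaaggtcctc
The Slc6a12 window held 1 match, whose first base lies 75 bases before the start, and the Slc38a2 window held 0. The other 4 Slc6a12 windows held none, so the one shown is the only window of that gene with the letters. Of all 32851 such windows 18.6% held the letters. Of the 9 genes 7 had windows, 13 in all, of which 3 held the letters, in Slc6a12 and Slc38a4. The letters TGATGNAAN on either strand, those of the amino acid response element, were in 0 of these 13 windows and in 3.44% of all windows. A match is no evidence of binding, and no match says nothing of sites elsewhere in a gene.

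**Figure D5:**
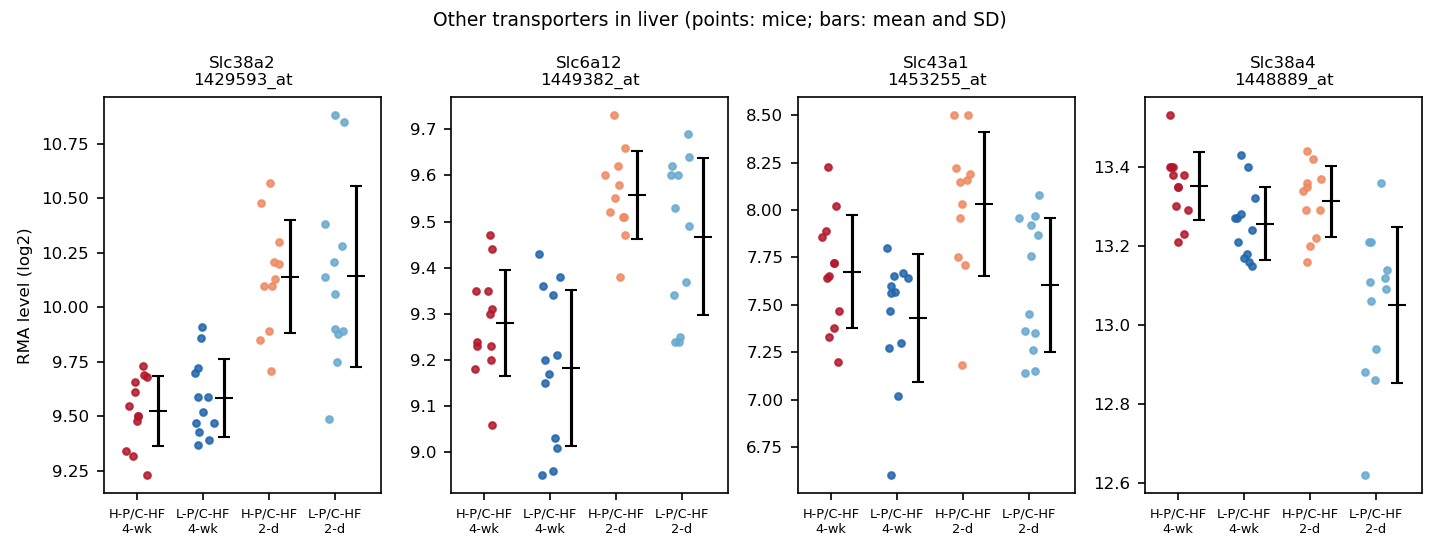
Levels (RMA, log2) of Slc38a2, Slc6a12, Slc43a1 and Slc38a4 in each mouse, each on the probe set named above its panel, with the mean and SD of each group beside the points (n = 12, and 11 for H-P/C-HF 2-d). For each gene it is the probe set with the smallest p over both diets in limma. On these probe sets Slc38a2 and Slc6a12 are lower at 4-wk in both diets, and Slc38a4 is lowest in L-P/C-HF 2-d mice. On its other probe set, 1428111_at, Slc38a4 averaged lowest in L-P/C-HF 4-wk mice (12.16, against 12.18 in L-P/C-HF 2-d mice).

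Of the other system A and N carriers, Slc38a4 on 1448889_at rose over both diets by 0.12 (adjusted p = 0.0185, and 0.0673 after cyclic loess). It rose in L-P/C-HF mice, with levels of 13.15, 13.255 and 13.43 at 4-wk, against 12.62, 13.10 and 13.36 at 2-d (log2 change 0.21 ± 0.05, adjusted p = 0.00874), where 12 of 12 mice at 4-wk exceeded the 2-d median. Those 2-d mice also belong to the diet difference at 2-d, so this p-value is not independent of the choice of genes. The change in H-P/C-HF mice was 0.04 ± 0.05 (adjusted p = 0.766), and whether the change differs between the diets is given no test, since it contains the diet differences. With the RNA quality covariate the change in L-P/C-HF mice was 0.10 (adjusted p = 0.766). On its other probe set, 1428111_at, the change over both diets was 0.01 and -0.02 after cyclic loess.

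Slc38a3 on the bright 1418706_at lay between 12.91 and 13.59 in all 47 mice, with a change of -0.08 ± 0.04 over both diets (adjusted p = 0.151). Its dimmer probe set, 1446013_at, fell over both diets by 0.24 (adjusted p = 2.8e-04, and 0.150 with the RNA quality covariate). On that probe set the H-P/C-HF mice had 8.08, 8.285 and 8.67 at 4-wk, against 8.35, 8.62 and 8.73 at 2-d, and 11 of 12 were below the 2-d median.

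Among carriers of large neutral and aromatic amino acids, Slc43a1 fell over both diets by 0.27 (adjusted p = 0.0471), a call that ended when B25 was included (adjusted p = 0.0583) and held with the RNA quality covariate (-0.48, adjusted p = 0.0135). Its levels at 4-wk were 7.20, 7.685 and 8.23 on H-P/C-HF and 6.60, 7.565 and 7.80 on L-P/C-HF, and the change passed in neither diet alone, whereas with the covariate it passed in H-P/C-HF mice (-0.55, adjusted p = 0.0384) and not in L-P/C-HF mice (-0.40, adjusted p = 0.337). Slc16a10 on 1453675_at fell over both diets by 0.38 (adjusted p = 9.4e-04, and 0.0940 with the RNA quality covariate). In H-P/C-HF mice that probe set had 6.97, 7.25 and 7.43 at 4-wk, against 7.05, 7.55 and 8.30 at 2-d, and all 12 lay below the 2-d median (-0.40, adjusted p = 0.0340, and 0.0916 with B25 included). Its probe set 1434592_at fell by 0.21 (adjusted p = 0.0208, and 0.0568 with B25 included), and the remaining pair, 1436368_at and 1440569_at, each had -0.06.

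Slc3a2 rose over both diets by 0.16 ± 0.05 (adjusted p = 0.0320), which ended after centring on the array median (adjusted p = 0.0608) and with the RNA quality covariate (0.09, adjusted p = 0.738). It had 9.47, 9.76 and 10.04 in H-P/C-HF 4-wk mice, against 9.20, 9.54 and 9.68 in H-P/C-HF 2-d mice.

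Slc1a2 had 5 probe sets, of which 3 fell over both diets and 2 did not pass. The falls were 0.32 on 1439940_at (adjusted p = 0.00206), 0.23 on 1438194_at (adjusted p = 0.0278, and 0.131 with B25 included) and 0.15 on 1433094_at (adjusted p = 0.0365, and 0.0725 with B25 included), and none passed with the RNA quality covariate (-0.16, -0.20 and -0.05). On 1439940_at all 12 L-P/C-HF 4-wk mice (7.38, 7.595 and 7.85) lay below the median of the L-P/C-HF 2-d mice (7.42, 7.89 and 8.65). On 1451627_a_at the change was 0.12 ± 0.07 and on the dim 1459014_at 0.06 ± 0.04. Their pairwise correlations over the deviations ran between -0.09 and 0.68.

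Genes of the same pathways were counted by their brightest probe sets over both diets. Of 27 measured among 28 other amino acid transporters of the plasma membrane, 2 rose and 0 fell, with a median change of 0.01 against -0.01 over all genes. The risers were Slc43a2, a relative of Slc43a1 (0.18, adjusted p = 0.00542), and Slc1a4, a carrier of alanine, serine and cysteine (0.15, adjusted p = 0.0150). The mean level of the 27 was 7.27 to 7.31 in the groups, not far above the array medians of 6.73 to 6.91. The brightest probe sets of the members averaged 10.63 to 10.90. Brightness differs between probe sets, so these means are a rough guide. Whether a fall could be seen at the lower level was not tested, so nothing is read from the count of 0. Of 10 lysosomal and other intracellular carriers 1 rose, Slc15a3, a peptide and histidine carrier (0.68, adjusted p = 8.99e-07), and 1 fell, Slc38a10 (-0.24, adjusted p = 0.00631).

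Of 10 enzymes of arginine and ornithine metabolism 0 rose and 2 fell, Arg1, the arginase of the urea cycle (-0.13, adjusted p = 9.94e-04), and Ass1, argininosuccinate synthase (-0.43, adjusted p = 0.0106). Of 11 enzymes measured for glutamine, glutamate, glycine betaine and aromatic amino acids 2 rose, namely Glud1, glutamate dehydrogenase (0.18), and Tdo2, the first enzyme of tryptophan breakdown (0.17). The 2 that fell were Bhmt, the betaine-homocysteine methyltransferase (-0.17, adjusted p = 0.00727), and Dmgdh, dimethylglycine dehydrogenase (-0.20, adjusted p = 0.00528). Of 22 targets of ATF4, the transcription factor of amino acid scarcity, 2 rose, Atf5 (0.36) and Trib3 (0.23), and 2 fell, Chac1 (-0.37) and Aldh18a1 (-0.21). With the RNA quality covariate, 1 intracellular carrier passed and no gene of the other 4 lists did.

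Zonal and cell type markers were counted in the same way over both diets. Of 9 periportal hepatocyte markers 1 rose and 4 fell, Cdh1 by the most (-0.74), and of 10 pericentral markers 0 rose and 1 fell, Cyp1a2 (-0.29). Of 9 general hepatocyte markers 1 rose and 2 fell, with a median of -0.03. The marker lists of lymphocytes (1 rose and 0 fell of 8), neutrophils (0 and 0 of 6), cholangiocytes (0 and 0 of 5), adipocytes (1 and 1 of 5), skeletal muscle (0 and 0 of 6), erythroid cells (0 and 0 of 3) and pancreatic acini (0 and 1 of 4) showed few changes. The mean over the 12 Kupffer cell markers ran between 8.37 and 9.89 in H-P/C-HF 4-wk mice and 9.015 and 10.44 in L-P/C-HF 4-wk mice, against 8.285 and 9.10 in H-P/C-HF 2-d mice and 8.24 and 9.40 in L-P/C-HF 2-d mice. With the RNA quality covariate 10 of 12 Kupffer cell markers, 7 of 8 endothelial markers and 5 of 8 stellate cell markers rose. In that fit 1 hepatocyte marker fell, and no periportal or pericentral marker and no marker of the remaining lists passed. The part of these cells in the falls of the transporters was not tested.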

How the data were processed

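Affymetrix expression arrays were run on liver RNA, 1 array for each of 48 mice. The authors deposited log2 values that they had made with RMA, which corrects background, normalizes between arrays and summarises each probe set; log base 2 was inferred from their range. The diet code with a P for protein in the labels was read as H-P/C-HF. Whether arrays were run in batches is not given in the sources used here. The values of 47 arrays (without B25) and 45037 probe sets (64 controls left out) were fitted in limma 3.58.1 (R 4.3.3) with 1 coefficient for each of 4 groups and eBayes with a trend over mean level. Tests were two-sided with Benjamini-Hochberg adjustment over all probe sets, and a level is said to rise or fall where the adjusted p was under 0.05. An ordinary one-way ANOVA was an alternative, without the Global Error Assessment step that the study applied after it. On simulated data of the same size, for 4-wk minus 2-d over both diets, 99% of shifts of 0.5 and 100% of shifts of 1 log2 unit were recovered, and 10 of 209 calls were false. The simulated noise was independent between probe sets and held no RNA quality difference. Most changes of the transporters were smaller than 0.5, so these figures check the code and do not carry over to the calls above.

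Gene names came from the platform annotation (34945 probe sets with 1 symbol, 932 with several, 9160 with none). The members and the gene lists were chosen with earlier results of these data known. All members are named through all of their probe sets. From the other lists, up to 3 genes were named by the smallest p over both diets or at 2-d, plus any that passed, and the 5 genes most like Slc7a2 by correlation. The within-mouse comparison of probe sets and the lists with the RNA quality covariate were chosen after the values were seen.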

Additional observations from a re-analysis of the deposited data

How the results depend on the processing

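The counts over the 23 transporter probe sets were recomputed with B25 included; without A01, A09 and A24; centred on array medians; after cyclic loess; on brighter probe sets alone; without a trend; with the RNA quality covariate; with a replicate block; with array weights; and by ordinary ANOVA. RNA quality left 3 of 14 calls over both diets (2.57% of all probe sets passed) and 0 of 6 in L-P/C-HF mice (1.03%). In H-P/C-HF mice it gave 2 calls (1.38% of all passed), of which 1 was among the original 7. An unadjusted ANOVA threshold of 0.001 gave 7 calls over both diets and 3 in L-P/C-HF mice. The share of all probe sets was not counted at that threshold, so nothing is read from these counts. ANOVA with Benjamini-Hochberg adjustment gave 3 in L-P/C-HF mice (3.68% of all), and array weights 11 in H-P/C-HF mice (12.3% of all). At 2-d the diet difference gave 1 call with B25 included (0.0111% of all), with array weights (0.0133%) and with the replicate block (0.00222%). It gave 4 after cyclic loess (0.0511%) and with RNA quality (0.0178%), and 0 by adjusted ANOVA (0%). At 4-wk it gave 0 under every alternative, where at most 0.0222% of all passed (array weights). It also gave 0 at the unadjusted threshold, where the share of all was not counted. The genes were chosen from the diet differences, and nothing is read from their counts. The causes were not tested.

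The change with duration switched sign on some single probe sets. With RNA quality the change was -0.13 over both diets and -0.29 in H-P/C-HF mice on 1426008_a_at, -0.011 in L-P/C-HF mice on 1422648_at, and, in H-P/C-HF mice, -0.052 on 1448889_at and -0.0061 on 1451627_a_at. On 1428111_at over both diets it was -0.024 after cyclic loess and -0.012 with array weights. In L-P/C-HF mice 1436555_at had -0.079 without A01, A09 and A24, -0.0037 after cyclic loess and -0.087 with array weights, and 1436368_at had 0.043 without those arrays and 0.012 with array weights. In H-P/C-HF mice 1440569_at had 0.0025 with B25 included and 0.011 after cyclic loess. None of these values passed. Of the diet differences at 2-d, 4 changed sign with B25 included, and between 16 and 22 of 23 were positive over the settings that kept all 23. Over all of these settings the adjusted p over both diets ran between 6.19e-09 and 0.00275 for Slc38a2 on 1429593_at, 2.45e-07 and 0.0252 for Slc6a12, 0.0135 and 0.0636 for Slc43a1, and 3.5e-06 and 0.587 for Slc7a2 on 1450703_at.

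The labels do not say what their replicate numbers mean. Deviations from the group means had a mean r of -0.02 over 69 same-number pairs of arrays (-0.62 to 0.60). Over 759 other pairs the mean was 0.002 (-0.64 to 0.73). Such means cannot exclude a pairing or a shared run by number. The replicate block gave 13 calls over both diets (16.8% of all probe sets passed), 7 in H-P/C-HF (8.51%) and 6 in L-P/C-HF mice (7.17%). No array has technical replicates, and with 1 array per mouse the spread is that between mice.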
